A study of Homo sapiens with 21 samples.

Results

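The genes described here are 32 human genes that move glucose into the cell, split it to pyruvate, and send the pyruvate to lactate or to the mitochondrial pyruvate dehydrogenase complex. They were chosen by function from a fixed list of glucose and lactate transporters, glycolytic enzymes, PFKFB regulators and pyruvate dehydrogenase genes, by a rule that uses no measured value. All 32 were found among the 26809 genes with a matched transcript, and all 32 passed the filter on low counts that left 13530 genes for testing. Their RNA was measured by RNA-seq in 786-O, an established line of clear cell renal carcinoma that lacks functional VHL, the protein that marks hypoxia-inducible factors for destruction. There were 3 libraries from cells infected with guide RNA sg2 against JMJD6, 3 from cells infected with guide RNA sg4 against JMJD6, and 3 from cells infected with a control guide. All 3 groups share the 786-O background, and JMJD6, an oxygenase of the jumonji family, is the only targeted gene. The groups follow the sample titles and the labelled guides. A general treatment text in the labels describes siRNA transfection of 786-O cells instead, while the text on RNA extraction names cells infected with the guides. The labels do not say whether the infected cells were pools or clones. They call the libraries triplicates and do not say if each came from its own culture. The p-values therefore rest on the spread among these libraries, which may be technical.

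Glycolysis runs from glucose uptake through hexokinase, phosphofructokinase, aldolase, enolase and pyruvate kinase to pyruvate. Most of its steps can be carried out by several isoenzymes, whose mix differs between tissues. Hypoxia-inducible factors are known activators of many of these genes, and in VHL-null renal carcinoma they stay active at normal oxygen. The 786-O line is known for making the factor encoded by EPAS1 and no functional protein from HIF1A. Pyruvate dehydrogenase kinases (PDK1 to PDK4) inhibit pyruvate dehydrogenase inside the mitochondria and so limit the conversion of pyruvate to acetyl-CoA, and the transporters SLC16A1 and SLC16A3 carry lactate across the cell membrane.

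The libraries held 14224263 to 16300347 estimated counts. JMJD6 itself had 17.1, 16.0 and 17.3 CPM in the sg2 libraries, 11.7, 14.4 and 10.7 CPM in the sg4 libraries, and 41.5, 40.9 and 44.4 CPM in the control libraries, where CPM is the estimated count scaled to edgeR's normalised library size. It was 2.52-fold lower with sg2 and 3.44-fold lower with sg4, so the targeted gene fits the labels. In bulk RNA, fewer cells of a type and less RNA per cell cannot be told apart.

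The summed level of the set was similar in the 3 groups, and a few of its genes were called. The 32 genes together made up 2.53% ± 0.0404 of all TPM (a level corrected for transcript length) in sg2 cells, 2.55% ± 0.0428 in sg4 cells and 2.56% ± 0.0631 in control cells (SD, n = 3 each). A gene was called when its Benjamini-Hochberg adjusted p in edgeR's quasi-likelihood test was under 0.05 over all 13530 genes. With sg2, 4 of the 32 genes were called, 2 higher and 2 lower, beside 10.4% of all genes tested (5% higher and 5.36% lower). With sg4, 6 were called, 4 higher and 2 lower, beside 8.43% of all genes (4.65% higher and 3.78% lower). With both guides averaged, 7 were called, 4 higher and 3 lower, beside 13.9% of all genes (6.92% higher and 6.95% lower). Their median log2 fold change in that comparison was 0.02, against -0.01 over all genes. On TPM without further scaling between libraries, limma called none of the 32 higher with either guide or with both averaged. It called 2 lower with sg2, PFKL and ENO2, and 3 with sg4, PFKL, PDK2 and SLC2A1. With both averaged it called 5 lower, PFKL, PDK2, SLC2A1, ENO2 and PFKP. In limma the median log2 change over all genes was -0.0348 with sg2, -0.0874 with sg4 and -0.0612 with both averaged. In edgeR these medians were -0.00172, -0.00854 and -0.00591. The 2 guides share the same 3 control libraries, so their comparisons with the control are not independent.

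Taken guide by guide, 3 of the 32 genes were called with both guides in the same direction: PGK1 and LDHA were higher, and PFKL was lower. Among all genes tested, 2.76% were called higher with both guides and 2.22% lower. No member was called in opposite directions. In CPM, all 6 knockout libraries lay above every control library for 5 members, GAPDH, HK1, LDHA, PGK1 and SLC16A1, beside 7.76% of all genes. All 6 lay below every control library for 3 members, PDK2, PFKL and PFKP, beside 7.18% of all genes.

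**Figure D1:**
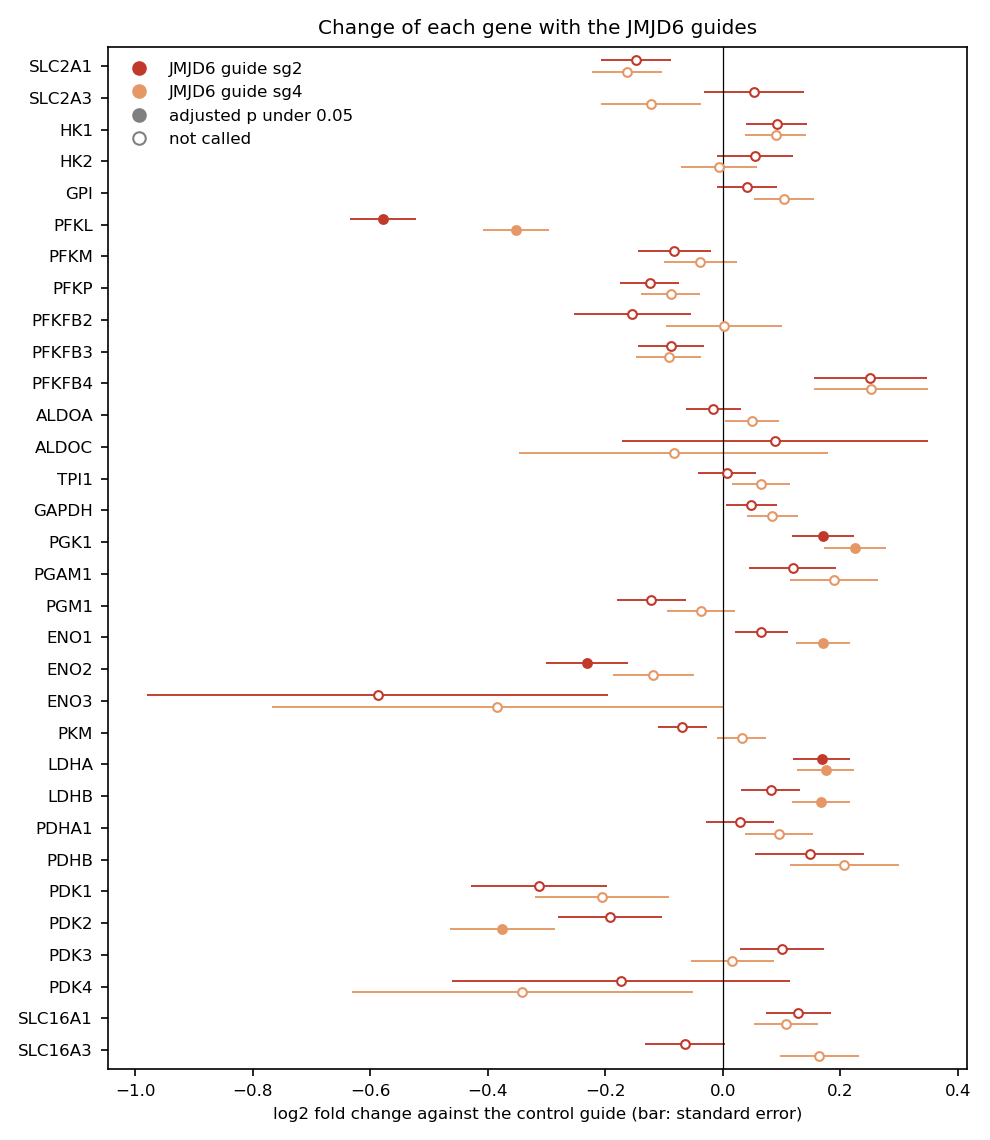
Log2 fold change of each of the 32 genes against the control guide (x axis) for guide sg2 and guide sg4, with bars for the standard error and filled points for an adjusted p under 0.05. The lowest filled point of sg2 is PFKL at -0.58, those of sg4 are PDK2 at -0.38 and PFKL at -0.35, and the filled points to the right of 0 lie between 0.17 and 0.22.

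Of the 7 genes called in the mean of both guides, the one that changed most was PFKL, the liver-type phosphofructokinase subunit, which takes part in the committed step of glycolysis. It had 144, 138 and 155 CPM in the sg2 libraries, 169, 173 and 169.7 CPM in the sg4 libraries, and 220.5, 215 and 217 CPM in the control libraries. All 6 knockout libraries were below all 3 controls, and the sg2 libraries were also below the sg4 libraries. The log2 fold change was -0.58 ± 0.0560 (SE) with sg2 (adjusted p = 2.76e-07) and -0.35 ± 0.0556 with sg4 (adjusted p = 0.000273). In the mean of both guides PFKL was 1.38-fold lower than in the control (log2 -0.46 ± 0.0475, adjusted p = 5.16e-07). The call held under every alternative that was run, with log2 values for the mean of both guides between -0.52 and -0.45. Between the guides, PFKL was higher in sg4 than in sg2 cells by 0.23 ± 0.0562 on the log2 scale, which did not pass the threshold (adjusted p = 0.253). DESeq2 called that difference (adjusted p = 0.0194).

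PGK1, phosphoglycerate kinase, which makes the first ATP of the payoff phase, rose with both guides. It had 545, 563 and 493 CPM in sg2 libraries, 544, 555 and 562 CPM in sg4 libraries, and 479, 477 and 465 CPM in control libraries. The lowest knockout library, the third of sg2, was still above the highest control. The log2 fold change was 0.17 ± 0.0529 with sg2 (adjusted p = 0.0379), 0.22 ± 0.0529 with sg4 (adjusted p = 0.00874) and 0.20 ± 0.0462 in the mean of both guides (adjusted p = 0.00505). The sg2 call was lost without sg2 library 1 or 2 or any control library (adjusted p from 0.0824 to 0.168). A replicate block and limma on TPM also removed the sg2 call. The call in the mean of both guides was not lost on leaving out any library, but was lost in limma on TPM (adjusted p = 0.0650) and without control library 3 and sg4 libraries 2 and 3 together (adjusted p = 0.0691). In limma on TPM the median log2 change over all genes was -0.0612 in the mean of both guides and -0.0874 with sg4. The sg4 call was lost in limma on TPM (adjusted p = 0.108). It was also past 0.05 without those 3 libraries (adjusted p = 0.212), where the sg4 arm is 1 library whose spread is assumed to be that of the other groups. Those 3 libraries carried the steepest trends of level with transcript length. With that trend removed from all libraries, PGK1 kept its calls with sg2 (adjusted p = 0.0123), with sg4 (adjusted p = 0.00657) and in the mean of both guides (adjusted p = 0.00204).

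LDHA, the lactate dehydrogenase subunit that favours turning pyruvate into lactate, rose by a similar size. It had 2235, 2466 and 2183 CPM in sg2 libraries, 2344, 2246 and 2329 CPM in sg4 libraries, and 1969, 2086 and 2070.0 CPM in control libraries. Again no knockout library overlapped the controls in CPM. In TPM the LDHA ranges of sg4 and control libraries overlapped. The log2 fold change was 0.17 ± 0.0487 with sg2 (adjusted p = 0.0266), 0.18 ± 0.0487 with sg4 (adjusted p = 0.0237) and 0.17 ± 0.0424 in the mean of both guides (adjusted p = 0.00762). The last call was lost without control library 1 (adjusted p = 0.0754) and in limma on TPM (adjusted p = 0.185). The sg2 call was lost without sg2 library 1 or 2 or control library 1 (adjusted p from 0.0517 to 0.154), and the sg4 call without sg4 library 3 or control library 1 or 3 (adjusted p from 0.0516 to 0.123). Both single-guide calls were also lost in limma on TPM. The sg4 call was lost as well with the trend with transcript length removed together with a replicate block. Processed pseudogenes of PGK1, LDHA, GAPDH, ENO1 and PGAM1 are known in the human genome, and how reads shared with them were assigned is not given in the sources used here.

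**Figure D2:**
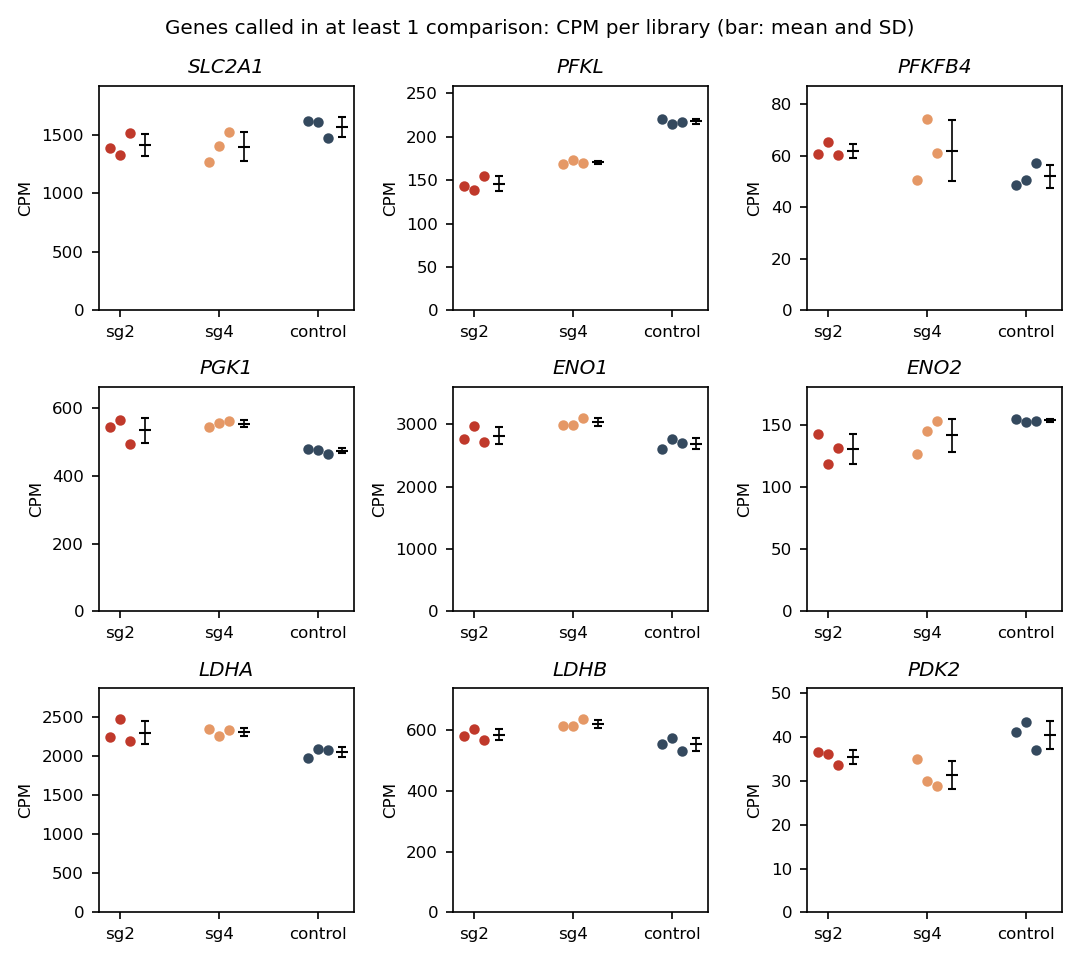
CPM per library (y axis from 0) of the 9 genes called in at least 1 comparison, for sg2, sg4 and control libraries, with the mean and SD of each group as bars. The PFKL points of the knockout groups, 138 to 173 CPM, sit under the control points at 215 to 220.5 CPM, and the PGK1 and LDHA points sit above their controls.

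The upstream sequences of these 3 genes are shown because they are the members that moved with both guides, 2 up and 1 down. Each is the 250 bases before a RefSeq start site of GRCh38.p14, 5′ to 3′ on the gene's strand, and the capitals mark the core letters of the hypoxia response element, ACGTG or GCGTG, found on either strand (CACGT and CACGC on the reverse strand). PFKL lies on the plus strand at chr21:44299803-44300052, PGK1 on the plus strand at chrX:78103998-78104247, and the 2 start sites of LDHA on the plus strand at chr11:18394313-18394562 and chr11:18396101-18396350.
PFKL: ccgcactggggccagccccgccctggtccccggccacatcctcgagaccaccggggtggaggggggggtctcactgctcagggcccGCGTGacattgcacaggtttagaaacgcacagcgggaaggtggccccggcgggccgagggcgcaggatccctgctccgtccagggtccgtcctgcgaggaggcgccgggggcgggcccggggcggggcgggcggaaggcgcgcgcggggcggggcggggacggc
PGK1: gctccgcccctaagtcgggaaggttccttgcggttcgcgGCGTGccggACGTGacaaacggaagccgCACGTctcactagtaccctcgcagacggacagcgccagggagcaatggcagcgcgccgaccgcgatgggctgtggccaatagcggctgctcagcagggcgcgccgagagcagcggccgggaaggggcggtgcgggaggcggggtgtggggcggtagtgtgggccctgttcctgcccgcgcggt
LDHA, first start site: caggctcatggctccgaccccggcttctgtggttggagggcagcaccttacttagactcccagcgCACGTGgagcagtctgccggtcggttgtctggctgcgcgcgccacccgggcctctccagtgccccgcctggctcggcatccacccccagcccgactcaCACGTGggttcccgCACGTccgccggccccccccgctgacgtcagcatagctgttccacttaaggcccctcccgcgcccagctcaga
LDHA, second start site: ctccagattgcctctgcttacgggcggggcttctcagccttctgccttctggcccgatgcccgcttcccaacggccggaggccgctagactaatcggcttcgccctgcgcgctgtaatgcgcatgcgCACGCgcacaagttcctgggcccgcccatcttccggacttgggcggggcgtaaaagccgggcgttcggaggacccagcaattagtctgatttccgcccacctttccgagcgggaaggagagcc
PFKL had no match of ACGTG and 1 of GCGTG in this window. PGK1 had 2 matches of ACGTG and 1 of GCGTG. The first LDHA window had 5 matches of ACGTG, counting both strands of each palindrome CACGTG, which is also the letter sequence of an E-box, and the second had 1 match of GCGTG. Other members called in a comparison did not divide by direction. PDK2 and ENO2, called lower, had 2 matches of ACGTG in a single window and 1 match. SLC2A1, called lower, and ENO1, LDHB and PFKFB4, called higher, had no match of ACGTG.

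Upstream sequences were present in the reference table for 29 of the 32 members, with 60 start sites in all. ACGTG stood in 35% of these 60 windows, beside 18.5% of the 35116 windows of all genes. GCGTG stood in 33.3% of member windows, beside 32.2% of all windows. CACGTG stood in 13.3% of member windows, beside 6.34% of all windows. Counted per gene with a match in any window, the shares differ. ACGTG was found for 62.1% of the 29 members, beside 21.7% of all 27305 genes. GCGTG was found for 62.1% of members beside 36.2% of all genes, and CACGTG for 27.6% beside 7.73%. A gene with more start sites has more windows in which a match can fall. These letter matches are a description of the windows and say nothing of binding in these cells. SLC16A1, PFKFB2 and SLC2A3 had no entry.

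Transcript levels in control cells ranged from 7179 ± 261 TPM for GAPDH to 2.11 ± 0.199 TPM for PDK4 (SD, n = 3). GAPDH, which oxidises glyceraldehyde 3-phosphate, had 7170.0, 7115 and 7279 TPM in sg2 libraries, 7212, 6908 and 7386 TPM in sg4 libraries, and 6901, 7215 and 7419.6 TPM in control libraries. It ranked 4 among all genes by mean TPM in control cells. PKM, pyruvate kinase, had 3330.2, 3418 and 3294 TPM in sg2 libraries, 3562, 3405 and 3437 TPM in sg4 libraries, and 3464, 3583 and 3745 TPM in control libraries. Its isoforms were not compared here.

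**Figure D3:**
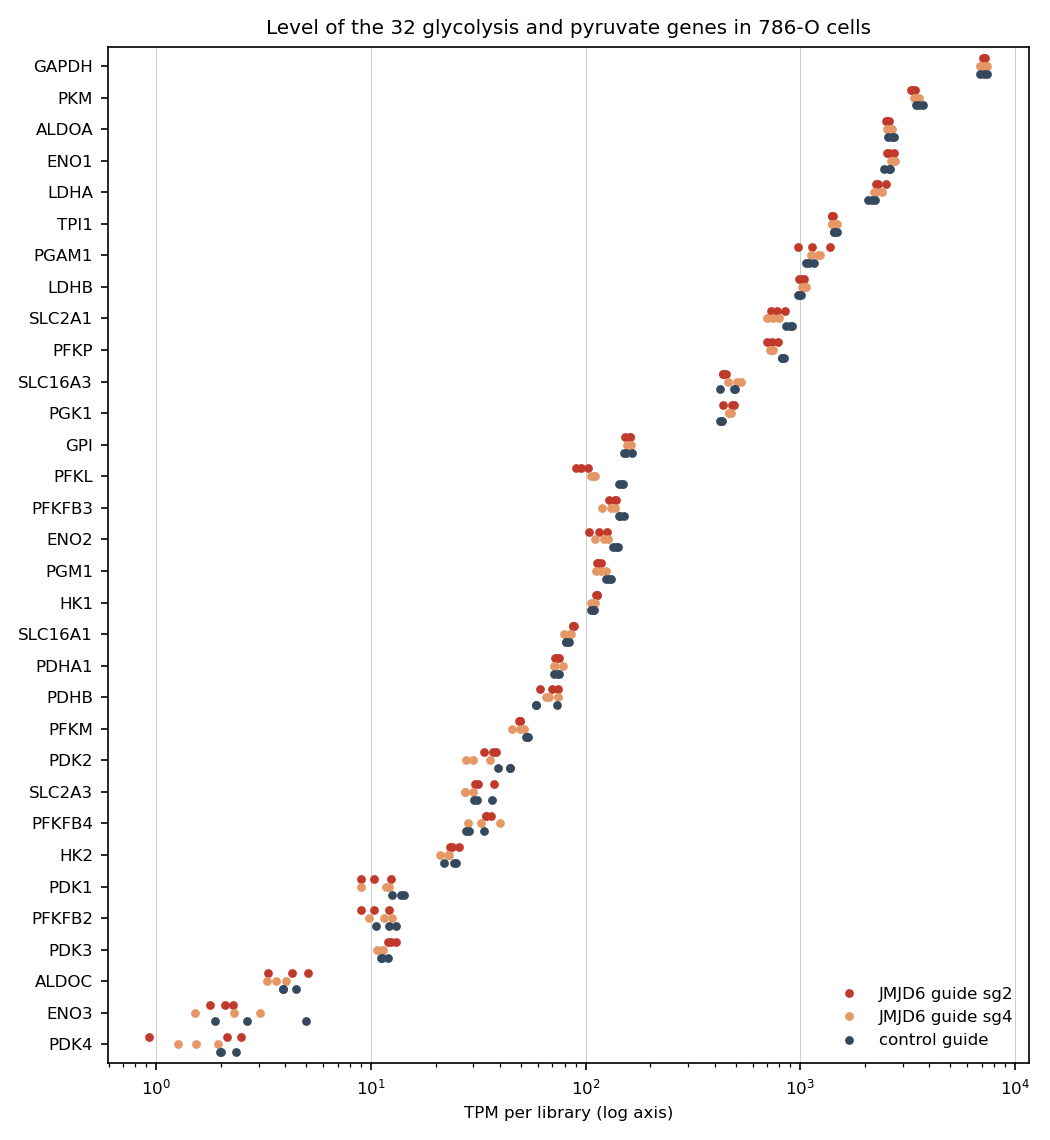
TPM per library on a log axis for the 32 genes, ordered by their mean in control cells, with sg2, sg4 and control libraries in separate colours. The genes span from about 7179 TPM for GAPDH to 2.11 TPM for PDK4 in control cells, and the PFKL points of both knockout groups lie to the left of the control points.

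Below GAPDH and PKM came ALDOA and ENO1 in control cells, at 2659 ± 74.9 and 2567 ± 85.9 TPM, with overlapping ranges. LDHA followed at 2153 ± 82.7 TPM, TPI1 at 1453 ± 24.2 TPM and PGAM1 at 1105 ± 47.4 TPM. The ranges of SLC16A3 and PGK1, and those of PFKL and PFKFB3, also overlapped with their neighbour in the order. At the low end, ALDOC, ENO3 and PDK4 had control means of 4.09 ± 0.320, 3.16 ± 1.61 and 2.11 ± 0.199 TPM, with each range overlapping the next. ENO3, the muscle enolase, had 1.77, 2.29 and 2.09 TPM in sg2 libraries, 2.31, 3.04 and 1.52 TPM in sg4 libraries, and 4.97, 1.88 and 2.65 TPM in control libraries. Its high control mean rested on control library 1.

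Glucose enters through SLC2A1, the widely expressed glucose transporter, which held 96.0% ± 0.160 of the summed TPM of SLC2A1 and SLC2A3 in sg2 cells, 96.4% ± 0.110 in sg4 cells and 96.5% ± 0.264 in control cells. SLC2A1 had 1390.3, 1329 and 1515 CPM in sg2 libraries, 1269, 1401 and 1521 CPM in sg4 libraries, and 1616, 1607 and 1469 CPM in control libraries. The third libraries of both knockout groups reached the range of the controls. It was called lower only in the mean of both guides (log2 -0.16 ± 0.0513, adjusted p = 0.0427). That call was lost in DESeq2 (adjusted p = 0.0519), with the trend with transcript length removed (adjusted p = 0.0542), with effective length offsets (adjusted p = 0.0502), with a replicate block (adjusted p = 0.0627), and without sg2 library 1 or 2, sg4 library 1 or 2, or control library 1 or 2 (adjusted p from 0.0653 to 0.221). SLC2A1 was also called with sg2 without sg2 library 3 (adjusted p = 0.0464), and with sg4 without sg4 library 3 (adjusted p = 0.0313). With sg4 it was called lower in limma on TPM as well. SLC2A3, a transporter of high glucose affinity, had 61.1, 59.8 and 72.1 CPM in sg2 libraries, 53.7, 55.8 and 61.4 CPM in sg4 libraries, and 69.6, 60.3 and 55.9 CPM in control libraries, and was not called.

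Hexokinases trap glucose in the cell as glucose 6-phosphate. Of the 2 member isoenzymes, HK1 exceeded HK2: HK2 held 17.7% ± 0.642 of their summed TPM in sg2 cells, 17.1% ± 0.917 in sg4 cells and 18.0% ± 1.06 in control cells. HK1 had 202, 208 and 205 CPM in sg2 libraries, 201, 202 and 211 CPM in sg4 libraries, and 190.3, 195 and 191 CPM in control libraries. All knockout libraries were above the controls, yet the change was small and was not called (log2 0.09 ± 0.0457 in the mean of both guides, adjusted p = 0.204). HK2 had 85.4, 85.2 and 91.7 CPM in sg2 libraries, 83.0, 87.9 and 80.4 CPM in sg4 libraries, and 88.9, 79.3 and 84.4 CPM in control libraries.

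A further hexokinase gene that is not among the 32, HKDC1, had more TPM than HK1 in every control library and less in every sg4 library. In sg2 cells the order varied between libraries. It had 115, 104 and 125 TPM in sg2 libraries, 97.9, 99.2 and 91.5 TPM in sg4 libraries, and 135, 120.2 and 132 TPM in control libraries. The share of HKDC1 in all hexokinase TPM was 45.5% ± 2.01 in sg2 cells, 42.4% ± 1.05 in sg4 cells and 49.5% ± 1.38 in control cells. That of HK1 was 44.8% ± 1.99 in sg2 cells, 47.8% ± 1.40 in sg4 cells and 41.4% ± 1.67 in control cells. HKDC1 was called lower with sg4 (log2 -0.34 ± 0.0617, adjusted p = 9.48e-04) and in the mean of both guides (-0.24 ± 0.0529, adjusted p = 0.003), and was not called with sg2 (-0.14 ± 0.0615, adjusted p = 0.144). The difference between the guides was not called (adjusted p = 0.308). GPI, which turns glucose 6-phosphate into fructose 6-phosphate, was not called and ranged from 315 to 349.9 CPM in knockout libraries and from 310.2 to 327 CPM in control libraries. PGM1, which links glucose 6-phosphate to glycogen, ranged from 130.3 to 144 CPM in knockout libraries and from 137 to 151 CPM in control libraries, and was not called.

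Phosphofructokinase in these cells was mostly PFKP, the platelet-type subunit, so PFKL was a minor isoenzyme. PFKL held 10.8% ± 0.119 of phosphofructokinase TPM in sg2 cells, 12.2% ± 0.307 in sg4 cells and 14.3% ± 0.177 in control cells (SD, n = 3 each). The share was below every control in all 6 knockout libraries. PFKP held 83.6% ± 0.239 in sg2 cells, 82.3% ± 0.636 in sg4 cells and 80.5% ± 0.170 in control cells. Its CPM values were 902, 865 and 955 in sg2 libraries, 886, 960.3 and 944 in sg4 libraries, and 991, 994 and 981 in control libraries. All knockout libraries were below the controls, and edgeR did not call the change (log2 -0.11 ± 0.0430 in the mean of both guides, adjusted p = 0.103). In limma on TPM it was called in that comparison (adjusted p = 0.0307). PFKM, the muscle-type subunit, had 76.8, 78.8 and 76.3 CPM in sg2 libraries, 81.8, 81.5 and 75.7 CPM in sg4 libraries, and 82.3, 82.6 and 80.5 CPM in control libraries, and was not called. The summed level of the 3 phosphofructokinase genes was 889 ± 48.8 TPM in sg2 cells, 892 ± 15.5 TPM in sg4 cells and 1029 ± 15.6 TPM in control cells (SD, n = 3 each). The sum was not tested.

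**Figure D4:**
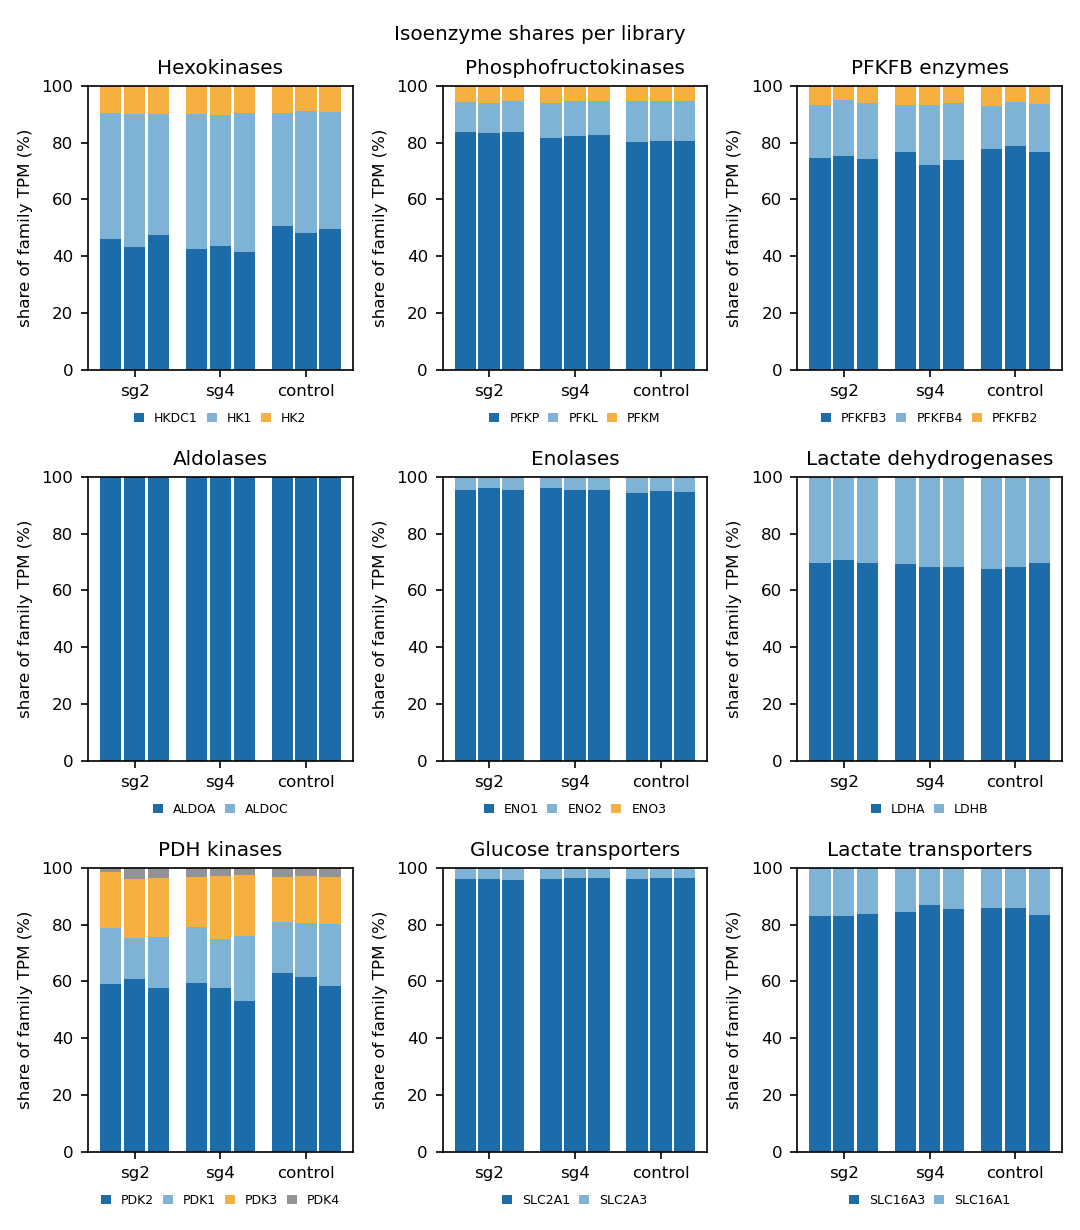
Share of the summed TPM of each isoenzyme or transporter family (y axis, percent) in each library, with sg2, sg4 and control libraries from left to right and 1 colour per gene. The hexokinase panel includes HKDC1, which is not among the 32 genes, and the PFKL band of the phosphofructokinase panel narrows to 10.8% in sg2 and 12.2% in sg4 cells, against 14.3% in control cells.

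PFKFB enzymes make and break fructose 2,6-bisphosphate, an activator of phosphofructokinase. PFKFB3, whose kinase activity prevails, held 74.8% ± 0.509 of the TPM of the 3 PFKFB members in sg2 cells, 74.3% ± 2.28 in sg4 cells and 77.7% ± 1.05 in control cells. PFKFB3 had 296, 304 and 278 CPM in sg2 libraries, 288, 312 and 275 CPM in sg4 libraries, and 305, 315 and 313 CPM in control libraries, and was not called. PFKFB4 had 60.6, 65.2 and 60.1 CPM in sg2 libraries, 50.7, 74.4 and 61.1 CPM in sg4 libraries, and 48.5, 50.6 and 57.1 CPM in control libraries. The first sg4 library lay within the control range and the second was the highest of all. PFKFB4 was called higher only in the mean of both guides (log2 0.25 ± 0.0845, adjusted p = 0.0465), and that call was lost without sg2 library 1 or 2, sg4 library 2 or 3, or control library 1 or 2 (adjusted p from 0.0624 to 0.221). It was also lost in limma on TPM (adjusted p = 0.243), with effective length offsets (adjusted p = 0.0505), and without control library 3 and sg4 libraries 2 and 3 together (adjusted p = 0.157). Without sg4 library 1, PFKFB4 was called with sg2 (adjusted p = 0.0384) and with sg4 (adjusted p = 0.00743). PFKFB2 had 35.1, 28.0 and 31.0 CPM in sg2 libraries, 34.4, 39.0 and 31.6 CPM in sg4 libraries, and 38.1, 31.5 and 35.2 CPM in control libraries, and was not called.

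Aldolase, which splits the 6-carbon sugar, came almost entirely from ALDOA. ALDOC held 0.166% ± 0.0367 of aldolase TPM in sg2 cells, 0.140% ± 0.0155 in sg4 cells and 0.154% ± 0.0164 in control cells. ALDOA had 1775, 1839 and 1776 CPM in sg2 libraries, 1803, 1863 and 1976 CPM in sg4 libraries, and 1770.1, 1858 and 1821 CPM in control libraries. ALDOC had 3.10, 2.43 and 3.69 CPM in sg2 libraries, 2.39, 3.04 and 2.76 CPM in sg4 libraries, and 3.16, 2.80 and 2.70 CPM in control libraries. Neither gene was called. TPI1, which interconverts the triose phosphates, was not called and ranged from 868 to 961 CPM in knockout libraries and from 841 to 899.6 CPM in control libraries. GAPDH lay at 4335 to 4708 CPM in knockout libraries and 4072 to 4309 CPM in control libraries, without overlap, and was not called (log2 0.07 ± 0.0377 in the mean of both guides, adjusted p = 0.269). In TPM the GAPDH ranges overlapped. PGAM1, phosphoglycerate mutase, spread widely in sg2 cells, at 939, 1142 and 806 CPM, with 1019, 1035 and 975 CPM in sg4 libraries and 857, 893 and 907 CPM in control libraries. It was not called (log2 0.15 ± 0.0648 in the mean of both guides, adjusted p = 0.120), but was called without sg2 library 3 (adjusted p = 0.00652). That omission also brought PGAM1 past the threshold with sg2 (adjusted p = 0.0194) and sg4 (adjusted p = 0.0351), as did leaving out sg2 library 2 with sg4 (adjusted p = 0.0219).

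Enolase, which makes phosphoenolpyruvate, was mostly ENO1, with 95.7% ± 0.511 of enolase TPM in sg2 cells, 95.7% ± 0.334 in sg4 cells and 94.8% ± 0.255 in control cells. ENO2, the neuronal enolase, held 4.65%, 3.65% and 4.38% in sg2 libraries, 3.85%, 4.38% and 4.46% in sg4 libraries, and 5.32%, 4.94% and 5.09% in control libraries. The ENO2 share of every knockout library was thus below every control. ENO2 had 142, 119 and 131 CPM in sg2 libraries, 126, 145 and 153 CPM in sg4 libraries, and 155, 152 and 153 CPM in control libraries. It was called lower with sg2 (log2 -0.23 ± 0.0693, adjusted p = 0.0325), and missed the threshold in the mean of both guides (-0.17 ± 0.0595, adjusted p = 0.0505). The sg2 call was lost without sg2 library 2 or 3 or any control library (adjusted p from 0.0662 to 0.182). A replicate block also removed the sg2 call, with or without the trend with transcript length removed. The averaged change was called without sg2 library 1 (adjusted p = 0.0335) or sg4 library 3 (adjusted p = 0.0265). It was also called in limma on TPM, with other filters on low counts, and with the trend with transcript length removed.

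ENO1 had 2769.6, 2973 and 2715 CPM in sg2 libraries, 2997, 2993 and 3105 CPM in sg4 libraries, and 2605, 2768 and 2707 CPM in control libraries. The sg4 libraries were all above the controls and the sg2 libraries overlapped them. ENO1 rose with sg4 (log2 0.17 ± 0.0455, adjusted p = 0.0190) and in the mean of both guides (0.12 ± 0.0396, adjusted p = 0.0456), and was not called with sg2 (0.07 ± 0.0455, adjusted p = 0.403). The difference between the guides was not called (adjusted p = 0.447). The sg4 call was lost without sg4 library 3 or control library 1 or 3 (adjusted p from 0.0528 to 0.106). The call in the mean of both guides was lost in limma on TPM (adjusted p = 0.474), with effective length offsets (adjusted p = 0.0596) and on leaving out any library other than sg2 library 3 and sg4 library 1 (adjusted p from 0.0534 to 0.240). ENO3 was not called (log2 -0.49 ± 0.332 in the mean of both guides, adjusted p = 0.373), and its log2 value was 0.00899 without control library 1. PKM had 4306, 4491 and 4256 CPM in sg2 libraries, 4649, 4625 and 4733 CPM in sg4 libraries, and 4419, 4627 and 4648 CPM in control libraries, and was not called.

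Lactate dehydrogenase was mostly LDHA, and its share moved less than its level. LDHA held 69.6%, 70.6% and 69.6% of the summed TPM of LDHA and LDHB in sg2 libraries, 69.2%, 68.4% and 68.3% in sg4 libraries, and 67.6%, 68.2% and 69.6% in control libraries, so the groups overlapped. LDHB, the subunit that favours lactate to pyruvate, had 580.0, 604 and 568 CPM in sg2 libraries, 612, 611 and 636 CPM in sg4 libraries, and 553, 571 and 531 CPM in control libraries. It rose with sg4 (log2 0.17 ± 0.0499, adjusted p = 0.0361) and was not called with sg2 (0.08 ± 0.0499, adjusted p = 0.332) or in the mean of both guides (0.12 ± 0.0434, adjusted p = 0.0557). The sg4 call was lost once the trend with transcript length was removed (log2 0.11, adjusted p = 0.145), and without sg2 library 1, sg4 library 2 or 3, or control library 1 or 3 (adjusted p from 0.0557 to 0.170). The averaged change of LDHB was called without sg2 library 3 (adjusted p = 0.0417) or sg4 library 1 (adjusted p = 0.0436). The summed level of LDHA and LDHB was 3371 ± 165 TPM in sg2 cells, 3339 ± 118 TPM in sg4 cells and 3145 ± 79.0 TPM in control cells (SD, n = 3 each), and was not tested.

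Lactate leaves and enters the cell through SLC16A3, known for lactate export, and SLC16A1. SLC16A3 held 83.4% ± 0.401 of their summed TPM in sg2 cells, 85.7% ± 1.28 in sg4 cells and 85.2% ± 1.42 in control cells. SLC16A3 had 408, 414 and 423 CPM in sg2 libraries, 433, 521 and 505 CPM in sg4 libraries, and 460.2, 459.7 and 381 CPM in control libraries. It was not called with either guide, and its difference between sg4 and sg2 (log2 0.23 ± 0.0676) was not called (adjusted p = 0.292). Without sg4 library 1, SLC16A3 was called higher with sg4 (adjusted p = 0.0200) and between sg4 and sg2 (adjusted p = 0.0340). SLC16A1 had 179, 181 and 175 CPM in sg2 libraries, 174, 169 and 185 CPM in sg4 libraries, and 162, 164 and 164 CPM in control libraries. All knockout libraries were above the controls, and the change was not called (log2 0.12 ± 0.0476 in the mean of both guides, adjusted p = 0.102).

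Pyruvate dehydrogenase turns pyruvate into acetyl-CoA, and its kinases inhibit it. The enzyme's own subunit genes were not called. PDHA1 ranged from 119.9 to 130.1 CPM in knockout libraries and from 112 to 122 CPM in control libraries, and PDHB from 40.1 to 49.0 CPM in knockout libraries and from 36.7 to 47.4 CPM in control libraries. Without control library 2, PDHB was called higher with sg4 (adjusted p = 0.0297) and in the mean of both guides (adjusted p = 0.0211). Among the kinases PDK2 was the most abundant per length, with 59.2% ± 1.52 of the summed TPM of the 4 kinases in sg2 cells, 56.7% ± 3.36 in sg4 cells and 61.0% ± 2.23 in control cells. PDK2 had 36.5, 36.2 and 33.7 CPM in sg2 libraries, 34.8, 30.0 and 28.8 CPM in sg4 libraries, and 41.1, 43.3 and 37.0 CPM in control libraries. All 6 knockout libraries were below the controls, the first sg2 library only narrowly. PDK2 fell with sg4 (log2 -0.38 ± 0.0891, adjusted p = 0.00929) and in the mean of both guides (-0.28 ± 0.0762, adjusted p = 0.0138), and was not called with sg2 (-0.19 ± 0.0885, adjusted p = 0.175). The difference between the guides was not called (adjusted p = 0.507). The call in the mean of both guides was lost without control library 1 (adjusted p = 0.0695) or control library 2 (adjusted p = 0.0966), and the sg4 call without sg4 library 3 (adjusted p = 0.0620). Without control library 3 and sg4 libraries 2 and 3 together, the adjusted p was 0.0604 for the mean and 0.228 for sg4, whose arm is then 1 library with its spread taken from the other groups.

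PDK1, the kinase best known as a hypoxia target, held only 17.3% ± 2.75 of kinase TPM in sg2 cells, 20.0% ± 2.90 in sg4 cells and 19.5% ± 1.86 in control cells. PDK1 had 23.2, 17.7 and 20.5 CPM in sg2 libraries, 22.8, 18.6 and 24.9 CPM in sg4 libraries, and 23.4, 26.3 and 26.7 CPM in control libraries, and was not called (log2 -0.26 ± 0.0988 in the mean of both guides, adjusted p = 0.0822). Without sg4 library 3, PDK1 was called in that comparison (adjusted p = 0.0490). PDK3 had 49.4, 50.3 and 52.6 CPM in sg2 libraries, 47.3, 47.2 and 49.1 CPM in sg4 libraries, and 49.1, 47.0 and 45.9 CPM in control libraries, and was not called. Its share of kinase TPM was 20.5% ± 0.611 in sg2 cells, 20.4% ± 2.33 in sg4 cells and 16.4% ± 0.512 in control cells, with every knockout library above every control. PDK4, known for its rise on fasting, had 1.67, 4.57 and 3.82 CPM in sg2 libraries, 3.52, 2.91 and 2.43 CPM in sg4 libraries, and 4.17, 3.58 and 3.48 CPM in control libraries, and was not called. The summed level of the 4 kinases was 61.2 ± 2.72 TPM in sg2 cells, 54.9 ± 4.67 TPM in sg4 cells and 69.7 ± 2.97 TPM in control cells (SD, n = 3 each), and was not tested.

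Set directly against each other, sg4 and sg2 gave no called difference for any of the 32 genes, beside 0.0591% of all genes tested (0.0443% higher and 0.0148% lower in sg4 cells). At an unadjusted p under 0.05 the same edgeR comparison picked 5 of the 32, beside 1337 of all 13530 genes. DESeq2 called 1 of the 32, PFKL, beside 26 of all genes. These tests do not show that the guides act alike.

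Genes of neighbouring routes are described for the mean of both guides, in which 13.9% of all genes were called. Of 36 further transporters and isoenzymes, 21 could be tested, with 3 called higher and 2 called lower. SLC2A6, a lysosomal hexose transporter, had 52.8, 62.3 and 48.0 CPM in sg2 libraries, 62.5, 68.1 and 60.6 CPM in sg4 libraries, and 44.5, 42.9 and 45.8 CPM in control libraries, and rose by 0.41 ± 0.0736 on the log2 scale (adjusted p = 5.34e-04). PGM2L1 and PGM2, relatives of phosphoglucomutase, rose by 0.31 ± 0.0906 (adjusted p = 0.0224) and 0.23 ± 0.0675 (adjusted p = 0.0250). HKDC1 is given above, and LDHD, a D-lactate dehydrogenase, was at 0.372 to 0.819 CPM in knockout libraries and 0.782 to 1.85 CPM in control libraries, with overlapping ranges (log2 -1.26 ± 0.410, adjusted p = 0.0406). Of 15 genes that carry pyruvate into mitochondria or use it there, 13 could be tested. None was called in the mean of both guides by edgeR or by DESeq2. At an unadjusted edgeR p under 0.05 there were 2, beside 3644 of all 13530 genes.

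Of 16 genes of the pentose phosphate and glycogen branches, 14 could be tested, with 3 called higher and none lower. RPIA, which makes ribose 5-phosphate, had 22.2, 21.3 and 20.2 CPM in sg2 libraries, 21.6, 21.5 and 21.6 CPM in sg4 libraries, and 17.9, 16.5 and 14.8 CPM in control libraries (log2 0.38 ± 0.0917, adjusted p = 0.00592). GYG1, the primer of glycogen, rose by 0.22 ± 0.0632 (adjusted p = 0.0199) and PYGL, liver glycogen phosphorylase, by 0.15 ± 0.0512 (adjusted p = 0.0477). Of 20 genes of the tricarboxylic acid cycle, all 20 could be tested and 1 was called in each direction. OGDH, a subunit of 2-oxoglutarate dehydrogenase, had 126, 140.2 and 136 CPM in sg2 libraries, 140.0, 147 and 141 CPM in sg4 libraries, and 160.0, 159 and 169.9 CPM in control libraries (log2 -0.24 ± 0.0499, adjusted p = 0.00223). IDH3B, a subunit of isocitrate dehydrogenase, rose by 0.20 ± 0.0640 (adjusted p = 0.0351). Of 10 genes of gluconeogenesis and the glycerol phosphate shuttle, 5 could be tested, and none was called by edgeR or by DESeq2 in that comparison. At an unadjusted edgeR p under 0.05 there was 1, beside 3644 of all 13530 genes. FBP1, the gluconeogenic fructose bisphosphatase known for its loss in clear cell renal carcinoma, had a level above 0 in only sg2 library 1, at 0.477 TPM, and control library 3, at 0.117 TPM.

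Among 17 regulators of glycolytic genes, 16 could be tested, with 1 called higher and 2 called lower. EGLN3, an oxygen sensor and hypoxia target that marks hypoxia-inducible factors for VHL, had 113, 110.1 and 126 CPM in sg2 libraries, 112, 118 and 125 CPM in sg4 libraries, and 143, 154 and 144 CPM in control libraries (log2 -0.32 ± 0.0544, adjusted p = 2.67e-04). MYC, a known activator of LDHA, rose by 0.20 ± 0.0526 (adjusted p = 0.0120). EPAS1, HIF1A, ARNT and VHL were not called, with log2 values of 0.01 ± 0.0427, -0.07 ± 0.0671, -0.12 ± 0.0664 and 0.04 ± 0.0629. The median log2 fold change in that comparison was 0.06 for the further transporters and isoenzymes, 0.07 for the mitochondrial pyruvate genes, 0.03 for the pentose phosphate and glycogen genes, 0.03 for the tricarboxylic acid cycle, -0.07 for gluconeogenesis and -0.05 for the regulators, against -0.01 for all genes tested, of which 13.9% were called.

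The cells carried the RNA of a renal carcinoma line. All 10 renal line markers could be tested, among them PAX8 at 127 to 178 TPM and VIM at 5279 to 5874 TPM over all 9 libraries. With both guides averaged, 2 of these markers were called higher, KRT18 (log2 0.45 ± 0.0560) and KRT8 (0.16 ± 0.0440), and 1 lower, CDH16 (-0.68 ± 0.0872). CD3E of T cells, CDH5 of endothelium, CKM of muscle and HBB of red cells had no count in any library. The summed level of 10 leukocyte and endothelial markers was 53.3 to 61.3 TPM in sg2 libraries, 54.4 to 64.7 TPM in sg4 libraries and 67.1 to 87.5 TPM in control libraries, and 2 of them could be tested, CSF1R, called higher, and CD68, called lower, in the mean of both guides. CD68 was by far the highest of these markers, at 47.9, 41.3 and 47.4 CPM in sg2 libraries, 49.5, 44.1 and 53.0 CPM in sg4 libraries, and 52.1, 53.2 and 66.2 CPM in control libraries. The highest value of any other was 4.99 CPM, for CSF1R in sg2 library 2. The summed level of 7 fibroblast and pericyte markers was 15.8 to 23.8 TPM in sg2 libraries, 18.2 to 25.3 TPM in sg4 libraries and 30.1 to 61.0 TPM in control libraries. Of the 5 that could be tested, 3 were called lower with both guides averaged, COL1A2, LUM and ACTA2, with control library 1 the highest. COL1A2 had 0.186, 0.143 and 0 CPM in sg2 libraries, 0.189, 0 and 2.96 CPM in sg4 libraries, and 20.1, 1.43 and 0.142 CPM in control libraries. Their part in the changes above was not tested. Without control library 1, the log2 change of PFKL in the mean of both guides stayed past the threshold at -0.45 (adjusted p = 2.38e-05), as did that of PGK1 at 0.21 (adjusted p = 0.0240). The other 5 members called in that comparison, LDHA, PDK2, ENO1, PFKFB4 and SLC2A1, were not called without control library 1. Among all genes tested, calls in that comparison went from 1877 to 938 without that library. PDK2, ENO1, PFKFB4 and SLC2A1 also lost the call without control library 2, where 1392 genes were called.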

How the data were processed

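RNA-seq values came from 9 of the 21 samples of the series, and the other 12 were not used here. The deposited tables hold, per the file headers, a length, an effective length, an estimated count and a TPM value for each transcript, the columns of Salmon, a tool named in the submitters' processing notes. Those notes also name cutadapt 1.12, STAR 2.5.2b and DESeq2, without the role of each. The strand setting is not given in the sources used here. All deposited estimated counts were whole numbers and were used unrounded. Counts and deposited TPM were summed per gene through RefSeq transcript names (GRCh38.p14, used for names and upstream sequences only), which matched 58031 of 60422 transcripts. Unmatched transcripts held 1.33% to 1.65% of the counts and were left out of library sizes and tests.

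Counts were tested in R 4.3.3 with edgeR 4.0.16 (TMM normalisation, filterByExpr, quasi-likelihood F test, 2-sided), in 1 fit of all 9 libraries, with Benjamini-Hochberg adjustment over 13530 genes. Standard errors are the log2 fold change divided by the root of F. Levels and shares use TPM. Alternatives were DESeq2 1.42.0, limma 3.58.1 on log2(TPM + 0.5), other scalings and filters, a length correction, a replicate block, and leaving out libraries.

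The rule for the 32 genes uses no measured value, but the genes, lists and tests were chosen with earlier results of these data known. Values are given per library for genes called in a comparison, for the 5 highest and 5 lowest genes in control cells, and for genes of isoenzyme families, and from other lists the genes with the largest called changes are named. Some genes of the lists are counted but not reported here by name.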

Additional observations from a re-analysis of the deposited data

How the results depend on the processing

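PFKL kept its direction and its call with each guide and in the mean of both guides under every alternative run. No called value changed sign under these alternatives, and several values that were not called did, among those printed ENO3 without control library 1 (log2 0.00899 in the mean of both guides). Called members under other settings were as follows, where the main counts are 4 with sg2, 6 with sg4, 7 in the mean of both guides and 0 between sg4 and sg2. With no filter on low counts they were 7 with sg2, 10 with sg4 and 1 between the guides. limma on TPM gave 2 with sg2 and 3 with sg4. Effective length offsets gave 4 in the mean of both guides. Without control library 3 and sg4 libraries 2 and 3, which leaves 1 sg4 library, they were 2 with sg4 and 4 in the mean of both guides. DESeq2 gave 1 between the guides. Leaving out 1 library at a time gave 1 to 5 members with sg2, 3 to 8 with sg4, 2 to 9 in the mean of both guides and 0 to 1 between the guides. The cause of these shifts was not tested.

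Called genes among all tested were 1402 with sg2, 1141 with sg4, 1877 in the mean of both guides and 8 between the guides. limma on TPM gave 876 with sg2 and 1 between the guides. Without control library 3 and sg4 libraries 2 and 3 they were 358 with sg4, 1116 in the mean of both guides and 0 between the guides. Between the guides DESeq2 gave 26 and no filter 72. Leaving out 1 library at a time gave 735 to 1595 with sg2, 606 to 1227 with sg4, 938 to 1878 in the mean of both guides and 0 to 49 between the guides. limma on TPM split its calls into 232 higher and 644 lower with sg2, 176 and 658 with sg4, and 318 and 1045 in the mean of both guides, against 677 and 725, 629 and 512, and 936 and 941 in edgeR.

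Same-numbered libraries did not deviate together (r from -0.141 to 0.0525), so the numbers were not taken as pairs. With a replicate block, 2 members were called with sg2, 5 with sg4, 5 in the mean of both guides and 0 between the guides, and 1089, 869, 1527 and 2 of all genes.

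Shares in control cells moved when taken from estimated counts, which are not corrected for length: 30.5% for HK2, 16.9% for PFKL, 78.7% for LDHA, 21.8% for PDK1, 34.6% for PDK2, 40.5% for PDK3, 96.2% for SLC2A1 and 72.5% for SLC16A3. With further family members in the sum, HK2 held 9.10%, SLC2A1 87.1% and SLC16A3 81.1%. PDK3 is thus the first kinase by counts and PDK2 by TPM. The comparison of only the groups in a contrast does not apply to the mean of both guides. Low counts limited ALDOC, ENO3 and PDK4, whose standard errors were 0.228, 0.332 and 0.248 in the mean of both guides.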
